A study of Mus musculus with 6 samples.

Results

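Heat shock proteins and cochaperones were described here as 10 genes of the 55335 in the count table, chosen by gene symbol. They were split by their known mode of expression into 4 inducible genes (Hspa1a, Hspa1b, Hsph1 and Dnajb1) and 6 constitutive ones (Dnaja1, Hsp90aa1, Hsp90ab1, Hspa8, Hspd1 and Hspe1). All 10 passed the filter on low counts, as did 14849 genes in all. RNA was sequenced in CD11b+ cells sorted from mouse spleen, with 3 libraries from the MI+RDN group (myocardial infarction plus renal denervation, which ablates the nerves to the kidney) and 3 from the MI group (myocardial infarction alone). All animals were labelled WT, and every group carried the infarct. The labels give no age, sex, time after infarction or number of animals per library, and no group without an infarct was analysed here. The comparison asks how renal denervation alters splenic myeloid cells after an infarct.

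Heat shock proteins are chaperones that bind unfolded protein and help it fold or pass it on for degradation. HSP70 proteins cycle on and off their clients by ATP hydrolysis, which J-domain proteins such as Dnajb1 and Dnaja1 stimulate and nucleotide exchange factors such as Hsph1 and Bag3 reset. HSP90 proteins act later, on kinases and steroid receptors among others, and the Hspd1 and Hspe1 products form the folding chamber of the mitochondrial matrix. Under heat or other proteotoxic stress the transcription factor HSF1 binds heat shock elements, inverted repeats of a short GAA unit, in the promoters of the inducible genes. In myeloid cells this response is also raised by fever, inflammation and the handling of cells.

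Promoters of 5 members are printed because the inducible genes differed among themselves and because Hspe1 shares its promoter region with Hspd1. Sequences came from RefSeq on GRCm38.p6, an older build than the GRCm39 named for the counts, and run 5′ to 3′ on the gene's strand from 250 bases before to 50 bases after the annotated start. Where a gene had several starts, the most upstream was taken. Capitals mark matches to GAANNTTC or TTCNNGAA, 2 GAA units in opposite orientation, each of which reads the same on both strands. Windows stood at chr17:34972107-34972406 (minus strand) for Hspa1a, chr17:34959189-34959488 (minus) for Hspa1b, chr5:149636287-149636586 (minus) for Hsph1, chr8:83607925-83608224 (plus) for Dnajb1 and chr1:55087898-55088197 (plus) for Hspe1.
Hspa1a: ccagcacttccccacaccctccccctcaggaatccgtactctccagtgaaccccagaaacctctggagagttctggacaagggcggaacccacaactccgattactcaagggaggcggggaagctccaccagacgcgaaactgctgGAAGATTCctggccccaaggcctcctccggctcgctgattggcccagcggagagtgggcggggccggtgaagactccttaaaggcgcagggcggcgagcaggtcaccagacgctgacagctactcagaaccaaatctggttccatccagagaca
Hspa1b: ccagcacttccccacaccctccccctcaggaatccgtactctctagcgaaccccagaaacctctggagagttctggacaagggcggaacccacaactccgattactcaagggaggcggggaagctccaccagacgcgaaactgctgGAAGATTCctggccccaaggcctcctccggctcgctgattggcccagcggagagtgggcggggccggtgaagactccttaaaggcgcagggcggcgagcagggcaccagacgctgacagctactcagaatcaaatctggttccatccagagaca
Hsph1: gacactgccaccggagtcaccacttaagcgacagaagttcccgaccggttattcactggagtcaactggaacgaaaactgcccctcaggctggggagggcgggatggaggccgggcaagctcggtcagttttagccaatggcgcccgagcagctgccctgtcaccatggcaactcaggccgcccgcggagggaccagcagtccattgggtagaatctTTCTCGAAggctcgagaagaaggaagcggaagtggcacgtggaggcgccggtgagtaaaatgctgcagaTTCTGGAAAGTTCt
Dnajb1: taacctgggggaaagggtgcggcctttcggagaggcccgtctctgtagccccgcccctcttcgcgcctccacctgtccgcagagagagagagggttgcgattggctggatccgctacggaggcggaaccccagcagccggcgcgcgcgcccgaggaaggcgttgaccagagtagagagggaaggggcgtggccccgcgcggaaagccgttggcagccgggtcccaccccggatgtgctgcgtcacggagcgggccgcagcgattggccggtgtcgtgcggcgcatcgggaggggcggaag
Hspe1: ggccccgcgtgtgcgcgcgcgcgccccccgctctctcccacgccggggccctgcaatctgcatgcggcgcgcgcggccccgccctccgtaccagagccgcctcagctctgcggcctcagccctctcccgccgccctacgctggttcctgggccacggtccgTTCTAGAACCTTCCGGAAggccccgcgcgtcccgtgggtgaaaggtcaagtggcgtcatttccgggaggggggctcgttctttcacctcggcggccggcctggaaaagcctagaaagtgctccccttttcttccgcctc

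The Hspa1a and Hspa1b windows were identical at 296 of 300 bases. The differences, counted from the 5′ end of the window with the Hspa1a base first, were C44T, T47C, T249G and C276T, and the single match to GAANNTTC at base 147 was shared. Hsph1 held 3 matches to the 2-unit motifs, of which those at bases 287 and 292 overlap and form a 3-unit run. The Dnajb1 window held no match, which says only that these letters are not in it. Hspe1 held 3 overlapping matches from base 162, and its window overlapped by 285 bases with that of a second Hspd1 start on the opposite strand. That start is not the most upstream one of Hspd1, whose window at chr1:55088194-55088493 held no match. Among all 32851 promoter windows of this length, 7.86% held GAANNTTC, 8.52% held TTCNNGAA, 15.1% held either, and 0.603% held the 3-unit form GAANNTTCNNGAA or its reverse complement. Windows were found for 7 of the 10 members, and those of Dnaja1 and Hspd1 are not printed. The most upstream window of Dnaja1, a constitutive member, held 1 match to GAANNTTC, at base 127.

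None of the 10 members passed the test over all genes at an adjusted p of 0.05 (edgeR's quasi-likelihood test with Benjamini-Hochberg adjustment), a threshold that 1.01% of all genes tested passed. At an unadjusted p under 0.05, 7 of 10 members were lower in MI+RDN and 0 were higher, against 10.1% of all genes lower and 9.83% higher. The same 7 had groups that did not overlap, with every MI+RDN library under every MI library, as in 13.7% of all genes. All 10 log2 fold changes were negative, against 49.0% of all genes, with a median of -0.42 beside 0.0080 for all genes tested. The DESeq2 Wald test called 5 members lower (Hspa1a, Hspa1b, Hsph1, Hsp90ab1 and Hspd1), beside 4.07% of all genes that it called lower. Limma-voom called 0 members, and 0.552% of all genes lower. The edgeR test without scaling factors called 2 members lower (Hspa1a and Hspa1b), beside 2.78% of all genes. In sorted cells sequenced in bulk, fewer cells of a type and less RNA per cell cannot be told apart.

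MI replicate 3 held the highest level of all 6 libraries for 10 of the 10 members. Without it the same edgeR test gave a negative log2 fold change for 8 of 10 members, with 7 still lower at an unadjusted p under 0.05. Library totals ranged from 24634555 to 28013900 counts in MI+RDN and from 21663440 to 24677865 in MI. The 10 members together took 0.222%, 0.292% and 0.236% of counts in MI+RDN replicates 1 to 3, and 0.315%, 0.281% and 0.391% in MI replicates 1 to 3. No MI+RDN library lay above MI replicate 1 or 3, while MI+RDN replicate 2 lay above MI replicate 2.

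**Figure D1:**
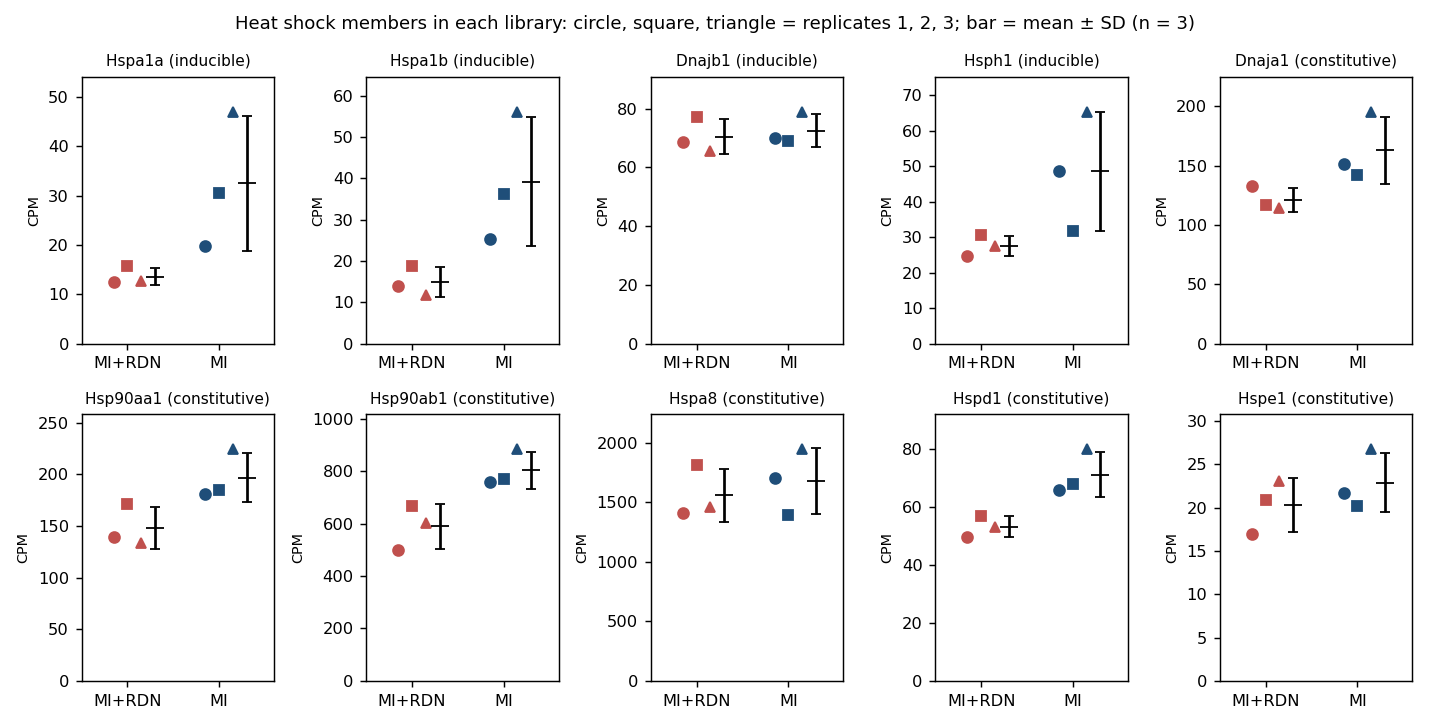
Level of each member in every library, in CPM (counts scaled to adjusted library size) on linear axes from 0, with MI+RDN on the left and MI on the right of each panel. Symbols mark replicates 1 to 3 and bars the mean ± SD (n = 3). MI replicate 3 is the highest point in all 10 panels, and the groups do not overlap in 7 of them.

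Levels of single genes are given in CPM, counts scaled to the adjusted total of each library. Hspa1b (ENSMUSG00000090877), a stress-inducible HSP70, stood at 14.0, 18.8 and 11.6 CPM in MI+RDN replicates 1 to 3, and at 25.4, 36.2 and 56.1 CPM in MI replicates 1 to 3. The groups did not overlap, and the MI libraries were spread more widely among themselves than the MI+RDN libraries. Its means were 14.8 ± 3.64 CPM in MI+RDN and 39.2 ± 15.6 CPM in MI (SD, n = 3), 2.65-fold lower in MI+RDN. The log2 fold change of -1.41 had an SE of 0.30 and a 95% interval of -2.09 to -0.72, and missed the threshold (edgeR Benjamini-Hochberg adjusted p = 0.0654). It was the member with the lowest p.

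Hspa1a (ENSMUSG00000091971), its near-identical neighbour in the MHC class III region, stood at 12.5, 15.7 and 12.6 CPM in MI+RDN replicates 1 to 3, and at 19.9, 30.6 and 47.0 CPM in MI replicates 1 to 3. The order of the MI libraries was the same as for Hspa1b, and the groups again did not overlap. The means of 13.6 ± 1.80 CPM in MI+RDN and 32.5 ± 13.7 CPM in MI (SD, n = 3) gave a log2 fold change of -1.26 (SE 0.29, edgeR Benjamini-Hochberg adjusted p = 0.0746). Without MI replicate 3 the log2 fold changes were -0.89 for Hspa1a and -1.05 for Hspa1b (edgeR Benjamini-Hochberg adjusted p = 0.190 and 0.175).

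Reads cannot always be assigned between these 2 genes. Of the 100-base windows in the longest coding transcript of each, 47.1% of those of Hspa1a occurred in Hspa1b and 49.9% of those of Hspa1b in Hspa1a (GENCODE M21), and Gm20481 is annotated across 2225 bases of Hspa1a on the other strand. With their counts summed into 1 row, the level was 28.4 ± 5.37 CPM in MI+RDN and 71.7 ± 29.2 CPM in MI (SD, n = 3), a log2 fold change of -1.34 (edgeR Benjamini-Hochberg adjusted p = 0.0660). Hspa1b gave 52.8%, 54.5% and 48.0% of the summed counts in MI+RDN replicates 1 to 3, and 56.1%, 54.2% and 54.4% in MI replicates 1 to 3. The widest Wilson 95% intervals of these shares, which cover counting error only, were 44.0% to 52.2% in MI+RDN replicate 3 and 49.0% to 56.5% in MI+RDN replicate 1. Both included an even split. The intervals lay above it in MI+RDN replicate 2 (51.3% to 57.7%) and in MI replicates 1 (53.1% to 59.0%), 2 (51.6% to 56.7%) and 3 (52.6% to 56.3%). Shares of Hspa1b thus ran from 48.0% to 56.1%, and how reads shared by the 2 genes were assigned is not known.

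Hsph1 (ENSMUSG00000029657), the HSP110 protein that exchanges nucleotide on HSP70, stood at 24.7, 30.4 and 27.6 CPM in MI+RDN replicates 1 to 3, and at 48.6, 31.7 and 65.2 CPM in MI replicates 1 to 3. The groups were separated by little, since MI replicate 2 lay just above MI+RDN replicate 2. The log2 fold change was -0.82 (SE 0.24, edgeR Benjamini-Hochberg adjusted p = 0.123), or -0.54 with MI replicate 3 left out and -1.04 with MI replicate 2 left out.

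Dnajb1 (ENSMUSG00000005483), the J-domain protein that works with inducible HSP70, did not follow the other inducible members. It stood at 68.5, 77.2 and 65.6 CPM in MI+RDN replicates 1 to 3, and at 69.9, 68.9 and 78.9 CPM in MI replicates 1 to 3. The groups overlapped almost fully. Its log2 fold change was -0.043 with a 95% interval of -0.27 to 0.19 (edgeR Benjamini-Hochberg adjusted p = 0.848), and 0.022 without MI replicate 3.

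Ratios of counts within a library do not depend on the scaling of libraries. Summed Hspa1a and Hspa1b counts came to 38.7, 44.6 and 36.9 per 100 Dnajb1 counts in MI+RDN replicates 1 to 3, and to 64.8, 96.9 and 131 in MI replicates 1 to 3. The groups did not overlap, and the means were 40.1 ± 4.05 in MI+RDN and 97.5 ± 32.96 in MI (SD, n = 3). Per 100 counts of Hspa8, the constitutive paralog, the same sum was 1.88, 1.90 and 1.66 in MI+RDN replicates 1 to 3, and 2.66, 4.80 and 5.30 in MI replicates 1 to 3. MI+RDN libraries lay within a narrow band on both ratios, and MI libraries differed among themselves about as much as they differed from MI+RDN.

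**Figure D2:**
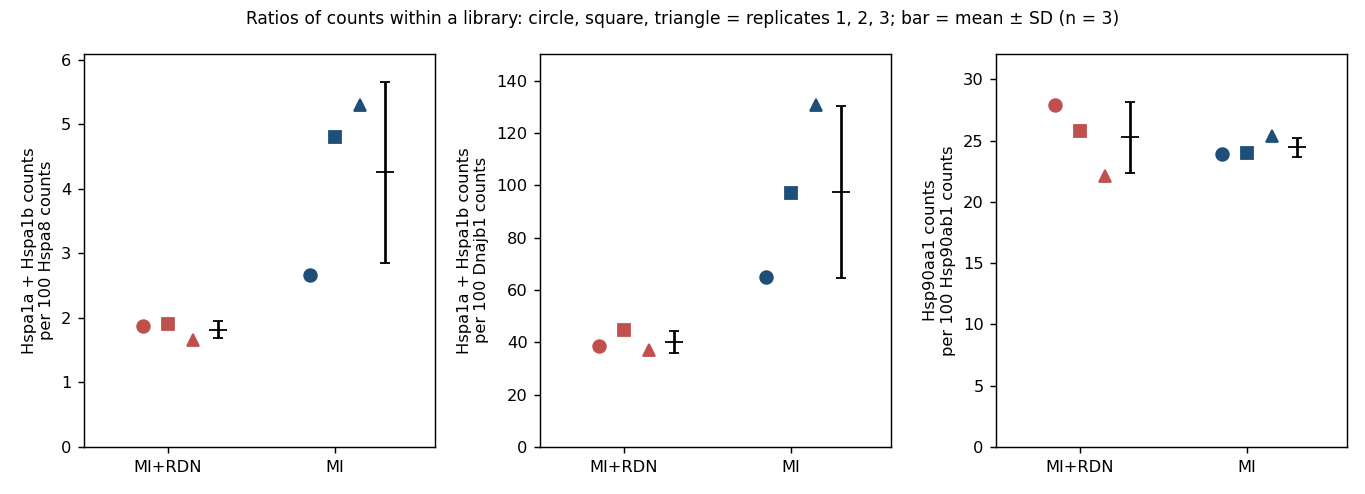
Ratios of counts within each library: summed Hspa1a and Hspa1b per 100 Hspa8 counts, the same sum per 100 Dnajb1 counts, and Hsp90aa1 per 100 Hsp90ab1 counts, on linear axes from 0 with MI+RDN left of MI. Symbols mark replicates 1 to 3 and bars the mean ± SD (n = 3). The groups do not overlap in the first 2 panels and overlap in the third.

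Among the constitutive members, Hspa8 (ENSMUSG00000015656), the HSC70 protein of all cells, stood at 1408, 1814 and 1457 CPM in MI+RDN replicates 1 to 3, and at 1700, 1389 and 1945 CPM in MI replicates 1 to 3. The groups overlapped. Its log2 fold change was -0.11 with a 95% interval of -0.50 to 0.29 (edgeR Benjamini-Hochberg adjusted p = 0.768), and 0.014 without MI replicate 3. Dnaja1, a J-domain partner of HSC70, stood at 133, 117 and 114 CPM in MI+RDN replicates 1 to 3, and at 151, 142 and 195 CPM in MI replicates 1 to 3. Its groups did not overlap, with a log2 fold change of -0.42 that missed the threshold (edgeR Benjamini-Hochberg adjusted p = 0.146).

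The cytosolic HSP90 genes had fold changes of similar size. Hsp90ab1, the constitutive form, stood at 499, 666 and 604 CPM in MI+RDN replicates 1 to 3, and at 757, 770 and 884 CPM in MI replicates 1 to 3, a log2 fold change of -0.45 (edgeR Benjamini-Hochberg adjusted p = 0.136). Hsp90aa1, placed here with the constitutive members although stress also raises it, stood at 139, 172 and 133 CPM in MI+RDN replicates 1 to 3, and at 181, 185 and 224 CPM in MI replicates 1 to 3, a log2 fold change of -0.41 (edgeR Benjamini-Hochberg adjusted p = 0.146). Neither pair of groups overlapped. Hsp90aa1 came to 25.3 ± 2.93 per 100 Hsp90ab1 counts in MI+RDN and 24.4 ± 0.814 in MI (SD, n = 3), with overlapping groups, so the balance between the paralogs differed by less than the spread between libraries.

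Hspd1 and Hspe1 encode mitochondrial HSP60 and HSP10 and are transcribed away from each other from a shared promoter region. Hspd1 stood at 49.8, 56.9 and 53.1 CPM in MI+RDN replicates 1 to 3, and at 65.9, 67.8 and 79.9 CPM in MI replicates 1 to 3. The groups did not overlap, and the log2 fold change was -0.42 with an SE of 0.10 (edgeR Benjamini-Hochberg adjusted p = 0.0897). Hspe1 stood at 17.0, 20.9 and 23.1 CPM in MI+RDN replicates 1 to 3, and at 21.7, 20.2 and 26.8 CPM in MI replicates 1 to 3. Here the groups overlapped, and the log2 fold change was -0.17 with a 95% interval of -0.54 to 0.19 (edgeR Benjamini-Hochberg adjusted p = 0.578). Hspe1 came to 38.1 ± 4.82 per 100 Hspd1 counts in MI+RDN and 32.1 ± 2.003 in MI (SD, n = 3). The 2 genes overlap by 112 bases on opposite strands. Of the 100-base windows of Hspd1, 26.9% also occur in transcripts of other genes, mainly Hspd1-ps3 (25.8%). Of those of Hspe1, 20.4% do, all in AC117239.2. How strand and shared reads were handled is not given in the sources, and the same limit holds for Hspa8 (62.8% of windows shared), Hsp90aa1 (47.5%) and Dnaja1 (14.8%), while Hsph1, Dnajb1 and Hsp90ab1 shared 0.

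**Figure D3:**
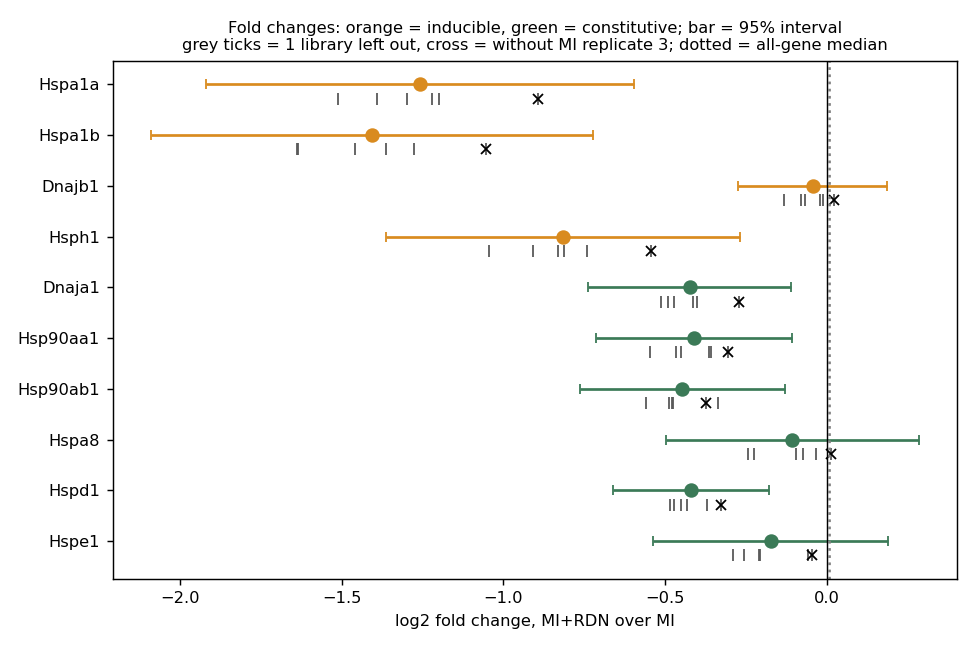
Log2 fold change of each member, MI+RDN over MI, with its 95% interval from the edgeR fit, inducible members in orange and constitutive ones in green. Grey ticks show the value with 1 library left out, crosses that without MI replicate 3, and the dotted line the median of all genes. Hspa1a, Hspa1b and Hsph1 lie farthest from 0, and the cross is the value nearest to 0 or past it for 9 of 10 members, Hsp90ab1 being the exception.

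The median log2 fold change was -1.04 over the 4 inducible members and -0.41 over the 6 constitutive ones. The inducible median rests on Hspa1a, Hspa1b and Hsph1, and 2 of these share reads. By library, on the log2 scale and with each gene centred on its mean over the 6 libraries, the inducible mean minus the constitutive mean was -0.23, -0.16 and -0.37 in MI+RDN replicates 1 to 3, and 0.034, 0.22 and 0.50 in MI replicates 1 to 3. The groups did not overlap on this difference, for which no test was made because the members were chosen with results known. The difference between the class medians was -0.62, and -0.43 without MI replicate 3. Between libraries of MI, the coefficient of variation of the level was 42.0% for Hspa1a, 39.8% for Hspa1b and 34.6% for Hsph1, against 7.62% for Dnajb1 and 8.68% to 17.5% for the constitutive members. In MI+RDN it was 13.3% for Hspa1a, 24.6% for Hspa1b, 10.3% for Hsph1 and 8.52% for Dnajb1, and 6.65% to 15.1% for the constitutive members.

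Levels between genes were compared per kilobase of the longest coding transcript (GENCODE M21). Hspa8 was highest, at 651 ± 92.7 CPM per kilobase in MI+RDN and 701 ± 116 in MI (SD, n = 3), followed by Hsp90ab1 at 234 ± 33.5 in MI+RDN and 319 ± 27.7 in MI, and Hsp90aa1 at 45.1 ± 6.26 in MI+RDN and 60.0 ± 7.28 in MI. Dnajb1, Dnaja1, Hspd1 and Hspe1 came next, with means of 21.6 to 26.3 CPM per kilobase in MI+RDN and 24.2 to 29.6 in MI, and their libraries overlapped except that Dnajb1 lay under Hspd1 in MI. Hsph1, Hspa1b and Hspa1a were lowest, at 7.25 ± 0.747, 5.28 ± 1.30 and 4.58 ± 0.608 CPM per kilobase in MI+RDN, and at 12.8 ± 4.41, 14.0 ± 5.56 and 10.95 ± 4.60 in MI. Libraries of neighbours in this order overlapped among these 3 in both groups. Lengths were not corrected for sequence shared with other genes, and how shared reads were assigned is not known. Shared windows made up 48.6% of Hspa1a, 49.9% of Hspa1b, 62.8% of Hspa8 and 47.5% of Hsp90aa1. They made up 0% of Hsph1, Dnajb1 and Hsp90ab1, and shares between these for Dnaja1, Hspd1 and Hspe1. The order thus holds for the counts as given, and its dependence on shared reads was not tested. Transcripts of the inducible HSP70 genes were present in every library, well below that of HSC70.

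With the members left out, 8603 genes with a mean of at least 10 CPM were compared with the mean of the 4 inducible members. The 5 whose log2 CPM followed it most closely were Fam210a, Set, Nolc1, Itgb1 and Il21r. Pearson r ran from 0.989 to 0.997 over the 6 libraries. These libraries include both groups and share their scaling, and with 6 points many genes reach a high r. Il21r, the interleukin-21 receptor, stood at 19.2, 24.2 and 20.7 CPM in MI+RDN replicates 1 to 3, and at 30.4, 30.9 and 41.6 CPM in MI replicates 1 to 3, a log2 fold change of -0.68. The other 4 had log2 fold changes of -0.35 to -0.25.

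Beyond the members, 142 genes in 9 lists of the chaperone network were examined, of which 130 were tested. Each gene is counted once here, but the lists overlap, and a gene in several lists counts in each of them below. None passed the edgeR test over all genes, where 15 were lower and 5 higher at an unadjusted p under 0.05, and 78 of 130 log2 fold changes were negative with a median of -0.076. Those lower made up 11.5% of the genes tested and those negative 60.0%, beside 10.1% and 49.0% of all genes. The median lay nearer to 0 than the -0.42 of the members.

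Among the heat shock factors and their regulators, Hsf1, the master activator of the response, stood at 27.95 ± 1.18 CPM in MI+RDN and 33.6 ± 3.67 CPM in MI (SD, n = 3), a log2 fold change of -0.26 (edgeR Benjamini-Hochberg adjusted p = 0.235). Hsf2, its paralog, had a log2 fold change of -0.14, and Ier5, an immediate early protein that activates HSF1, one of 0.25. Of 6 tested factors and regulators, 1 (Hsf1, 16.7%) was lower at an unadjusted p under 0.05 and 0 were higher, beside 10.1% lower and 9.83% higher of all genes. Of 19 tested genes known as further HSF1 targets, 5 (26.3%) were lower and 1 (5.26%) was higher by that measure, with a median log2 fold change of -0.19. Those 5 (Bag3, Hspa4, Fkbp4, Stip1 and Dnaja4) also stand in the HSP70, HSP90 or J-domain lists and are counted again there. Bag3, an HSP70 exchange factor of selective autophagy, stood at 15.7, 19.2 and 16.8 CPM in MI+RDN replicates 1 to 3, and at 22.2, 22.7 and 25.04 CPM in MI replicates 1 to 3. Its groups did not overlap, with a log2 fold change of -0.43 (edgeR Benjamini-Hochberg adjusted p = 0.111). Ubb, a polyubiquitin gene of the same list, had the opposite sign, at 1986 ± 206 CPM in MI+RDN and 1465 ± 152 CPM in MI (SD, n = 3), a log2 fold change of 0.44 (edgeR Benjamini-Hochberg adjusted p = 0.146). Chordc1, an HSP90 cochaperone, had the lowest log2 fold change in that list among genes of at least 5 CPM, -0.45.

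Most small heat shock proteins had few counts or none. Of 10 listed, 3 passed the filter on low counts, and Hspb1, which stress induces in many tissues, had 3, 1 and 0 counts in MI+RDN replicates 1 to 3, and 0, 2 and 2 counts in MI replicates 1 to 3. Hspb6, best known from muscle, stood at 6.005, 5.30 and 5.67 CPM in MI+RDN replicates 1 to 3, and at 3.02, 3.25 and 2.80 CPM in MI replicates 1 to 3. It was higher in every MI+RDN library, with a log2 fold change of 0.90, and missed the threshold (edgeR Benjamini-Hochberg adjusted p = 0.0627). Hspb11, an intraflagellar transport protein listed by its name, had a log2 fold change of -0.25 with overlapping groups (edgeR Benjamini-Hochberg adjusted p = 0.516).

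Of 26 HSP90 paralogs and cochaperones, 4 (15.4%) were lower and 2 (7.69%) higher at an unadjusted p under 0.05, with a median log2 fold change of -0.081. Of all genes, 10.1% were lower and 9.83% higher. Fkbp5, an HSP90 cochaperone that glucocorticoids induce, had the largest fold change of these lists. It stood at 160, 284 and 279 CPM in MI+RDN replicates 1 to 3, and at 96.7, 106 and 53.9 CPM in MI replicates 1 to 3, a log2 fold change of 1.497 that missed the threshold (edgeR Benjamini-Hochberg adjusted p = 0.0574). Its paralog Fkbp4 had a log2 fold change of -0.32, and St13, which stabilises HSP70 bound to its client, one of -0.30, while Rpap3, a cochaperone of complex assembly, had the lowest, -0.54. Of 19 other HSP70 proteins and exchange factors, 4 (21.1%) were lower and 0 higher, among them Hspa4, an HSP110 protein, with a log2 fold change of -0.23, and Hspa2 had the highest, 0.35. Of 35 other J-domain proteins, 2 or 5.71% were lower (Dnajc27 and Dnaja4, with log2 fold changes of -0.47 and -0.86) and 0 higher, with a median of -0.020 and Dnajc28 the highest at 0.30.

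The 8 subunits of TRiC, the cytosolic chaperonin that folds actin and tubulin, all had negative log2 fold changes, from -0.30 to -0.0083, and 2 of them (Cct6a and Cct3) were lower at an unadjusted p under 0.05. Of all genes, 49.0% had a negative value, and 10.1% were lower and 9.83% higher at that p. The subunits were singled out from their list after their values were seen, and its 6 prefoldin genes had log2 fold changes from -0.33 for Pfdn4 to 0.076 for Pfdn6. Of 13 mitochondrial chaperones and proteases, 2 or 15.4% were lower (Afg3l2, an inner membrane protease, at -0.45 and Hspa9, mitochondrial HSP70, at -0.27) and 0 higher, and Hscb was highest at 0.22. Of 22 genes of the unfolded protein response of the endoplasmic reticulum, 2 (9.09%) were lower and 1 (4.55%) was higher, with a median log2 fold change of -0.050. Canx, the lectin chaperone calnexin, had the lowest p there, with -0.27, and Ddit3, the stress transcription factor CHOP, was the member higher at an unadjusted p under 0.05, with 0.35.

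**Figure D4:**
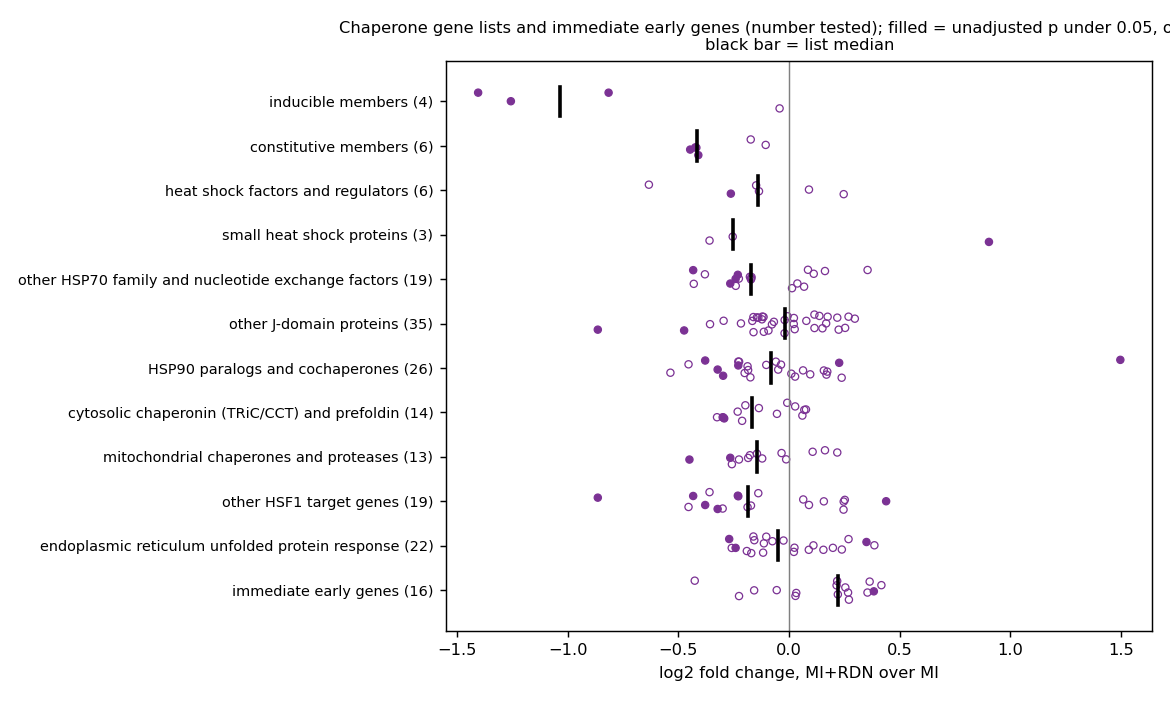
Log2 fold change, MI+RDN over MI, of every tested gene in the member classes, in 9 chaperone lists and among immediate early genes, 1 row per list with the number tested in brackets. Filled points had an unadjusted p under 0.05 in edgeR and black bars are list medians. Hspa1b and Hspa1a lie farthest to the left, Dnajb1 lies near 0, and Fkbp5 lies farthest to the right.

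Immediate early genes, which handling of cells can raise together with heat shock genes, lay mostly above 0, at a median of 0.22 on the log2 scale, and none passed the adjusted threshold. Of 16 tested, 12 had a positive value and 4 (Fosb, Ier3, Dusp1 and Atf3) a negative one, and 1 (Ier2) was higher at an unadjusted p under 0.05 and 0 were lower. Negative values thus made up 25%, beside 49.0% of all genes. Those higher made up 6.25%, beside 9.83% of all genes, where 10.1% were lower. The log2 fold change was 0.38 for Ier2 (edgeR Benjamini-Hochberg adjusted p = 0.210). Fosb, which encodes an AP-1 subunit, had the lowest at -0.43 (edgeR Benjamini-Hochberg adjusted p = 0.257), and Socs3, a feedback inhibitor of cytokine signalling, the highest at 0.42 (edgeR Benjamini-Hochberg adjusted p = 0.375). Their summed level was 11249 to 11937 CPM in MI+RDN and 7501 to 12425 CPM in MI, and MI replicate 3 was the lowest of the 6 libraries. Whether handling of cells had a part in these values or in those of the members was not tested.

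Markers of cells that can pass a CD11b+ gate, or contaminate it, also differed between the groups, and their part in the values above was not tested. Neutrophil markers were positive in 8 of 8, with a summed level of 22951 to 26956 CPM in MI+RDN and 10985 to 16918 CPM in MI. Conventional dendritic cell markers were negative in 6 of 6, with sums of 367 to 471 CPM in MI+RDN and 615 to 831 CPM in MI. B cell markers were negative in 6 of 6, with 200 to 325 CPM in MI+RDN and 386 to 595 CPM in MI, and T cell markers in 6 of 6, with 23.4 to 40.0 CPM in MI+RDN and 53.4 to 70.9 CPM in MI. MI replicate 3 had the lowest neutrophil sum and the highest B cell and dendritic cell sums of the 6 libraries. Red pulp macrophage markers were negative in 5 of 6, with 319 to 574 CPM in MI+RDN and 529 to 687 CPM in MI, and erythroid markers in 5 of 6, with 171 to 244 CPM in MI+RDN and 385 to 774 CPM in MI. Monocyte and NK cell sums overlapped between the groups, at 4922 to 6079 and 118 to 171 CPM in MI+RDN, and at 4951 to 6004 and 140 to 150 CPM in MI. Of all these markers, 7 passed the edgeR test over all genes, a test that 1.01% of all genes passed. For the counts of signs, 49.0% of all genes had a negative log2 fold change. Retnlg and Ly6g of the neutrophil list rose in MI+RDN, by log2 fold changes of 1.26 and 1.55 (edgeR Benjamini-Hochberg adjusted p = 0.0316 and 0.0425), as did Ly6c2 of the monocyte list, by 0.92 (edgeR Benjamini-Hochberg adjusted p = 0.0364). Most of the monocyte list had the other sign, with 4 of 6 values negative and a median of -0.16. Zbtb46, Clec10a and Cd209a of the dendritic cell list were lower in MI+RDN, with log2 fold changes of -1.15, -1.16 and -2.15 (edgeR Benjamini-Hochberg adjusted p = 0.0401, 0.0439 and 0.0401), and so was Cd3d of the T cell list, with -1.47 (edgeR Benjamini-Hochberg adjusted p = 0.0442). Itgam, which encodes CD11b, was present in all libraries, at 1598 ± 95.2 CPM in MI+RDN and 1133 ± 150 CPM in MI (SD, n = 3), and no marker in these lists was at 0 in all libraries.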

How the data were processed

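The authors deposited 1 table of raw counts per Ensembl gene with a column per library, per the file headers, and its whole-number values carry no normalisation. Total RNA was column-purified and made into strand-specific libraries read on a NovaSeq, per the labels' protocols. The submitters' processing notes name FastQC 0.11.2, STAR and GRCm39. No source used here states the counter, the annotation, the strand setting or how reads with several places were handled. Symbols came from GENCODE M21 on GRCm38 by Ensembl ID (55154 of 55335 matched).

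The test was run with edgeR 4.0.16 in R 4.3.3 (filterByExpr, TMM factors, quasi-likelihood test, Benjamini-Hochberg adjustment over 14849 genes). CPM are scaled by TMM-adjusted library sizes, and log2 CPM used a prior count of 2. The labels call replicates biological, and p-values measure the spread between these 6 libraries, with a common biological coefficient of variation of 20.7%. SE is the size of the log2 fold change divided by the root of the F statistic. The 95% intervals use the total degrees of freedom of that test, which add prior to residual ones. The procedure was tested on simulated data. Alternatives were DESeq2 size factors, upper-quartile factors or none, no filter, a mean of at least 5 CPM, limma-voom (limma 3.58.1), the Wald test of DESeq2 1.42.0, edgeR with robust shrinkage, a replicate block, summed Hspa1a and Hspa1b, and each library left out.

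Members and lists were chosen with earlier results of these data known. Beside the members, genes were named by rule: in each chaperone list and among immediate early genes those past the threshold or else the 2 with the lowest p, and the highest and lowest log2 fold change at a mean of at least 5 CPM, with Hsf1, Hsf2 and Bag3 always. Cell type markers past the threshold are also named. Others were chosen after their values were seen. Figures used Python 3.11.15 and matplotlib 3.10.9.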

Additional observations from a re-analysis of the deposited data

How the results depend on the processing

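Of 152 values of single members under alternatives, 143 kept their sign and their side of the threshold, 7 passed it and 2 turned sign. The 2 were Dnajb1 (0.022) and Hspa8 (0.014) without MI replicate 3, and the cause was not tested. With 1 library left out, Dnajb1 ranged from -0.13 to 0.022 and Hspa8 from -0.24 to 0.014. The 7 were Hspa1a, Hspa1b, Hsph1, Hsp90ab1 and Hspd1 with the DESeq2 Wald test (5 members called) and Hspa1a and Hspa1b without scaling factors (2 members called), a setting that moved the median of all genes to -0.13, with the median of the 10 members at -0.56. In all other settings 0 members passed. The count of members lower at an unadjusted p under 0.05, whose alternatives were chosen after seeing the data, was 6 or 7 throughout. The difference between class medians was -0.43 without MI replicate 3, and with 1 library left out it ranged from -0.72 to -0.43. The count of genes past the threshold, 150, was 475 without scaling factors, 21 without a filter, 290 at a mean of at least 5 CPM, 1165 with the DESeq2 Wald test and 277 with robust edgeR, and from 0 to 67 with 1 library left out and so fewer samples (0 without MI+RDN replicate 1 or MI replicate 3, where edgeR gave 2323 and 2084 genes at an unadjusted p under 0.05). With the replicate number as a block 87 genes and 0 members passed. The labels name no batch. Deviations of same-numbered libraries from their group means correlated at 0.018, -0.065 and 0.064, and not every library correlated best with its own number. With 3 libraries a group, these values cannot exclude that same-numbered libraries shared a batch. Depth was not limiting for the members, whose lowest count was 271.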
